A study of Mus musculus with 6 samples.

Results

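The 10 genes followed here were listed as signals and transcription factors of the cushions of the embryonic heart. They are the BMP ligand genes *Bmp2*, *Bmp4*, *Bmp5* and *Bmp7* and the TGF-beta ligand genes *Tgfb1*, *Tgfb2* and *Tgfb3*. The others are the genes for the transcription factors *Snai1*, *Snai2* and *Twist1*. The genes were picked by name as a pathway, with earlier results of these data known. All 10 had enough counts to be tested, among 16048 tested genes and 54356 annotated genes with a transcript in the files. The study sequenced polyadenylated RNA from hearts of C57BL/6 mouse embryos at E9.5, with 3 FlncgKO and 3 littermate control libraries. FlncgKO embryos carry a deletion of exons of *Flnc*, the gene of the actin crosslinker filamin C, because a floxed allele was recombined by *Sox2* Cre, which is active in the whole epiblast, so every cell type of the embryo proper carries the deletion. The labels call the littermates only control, with no further genotype. The labels give whole heart as the tissue while the methods speak of hearts or isolated ventricles, and the number of hearts behind a library is not given in the sources used here, so the p-values measure the spread between these libraries, which may be partly technical.

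BMP and TGF-beta proteins are secreted dimers that bind paired type I and type II serine/threonine kinase receptors, which phosphorylate Smad proteins that enter the nucleus. In the looping heart, BMP ligands from the atrioventricular and outflow tract myocardium, together with TGF-beta ligands, act on the adjacent endocardium. Some endocardial cells then undergo epithelial-mesenchymal transition (EMT), lose their junctions under the control of Snail and Twist factors, and fill the cushions from which valves and septa form.

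The libraries held 19208859 to 23123255 estimated counts, of which mitochondrially encoded genes took 2.01% to 2.58% in FlncgKO and 3.08% to 3.96% in control. *Flnc* stood at 127, 111 and 240 CPM in FlncgKO replicates 1, 2 and 3, and at 844, 623 and 746 CPM in control replicates 1, 2 and 3, below every control but with an adjusted p of 0.0656 from edgeR and 9.94e-07 from DESeq2. CPM is a gene's count brought to a common library total, with TMM scaling for RNA composition. Markers of cardiomyocytes summed to 27988 to 32810 CPM in FlncgKO and 30857 to 34718 CPM in control, and endothelial and endocardial markers to 937 to 1146 CPM in FlncgKO and 866 to 1039.5 CPM in control. The sums were 6270.01 to 9786 CPM in FlncgKO and 2532 to 7148 CPM in control for erythroid markers, 73.1 to 93.4 CPM in FlncgKO and 78.1 to 113 CPM in control for epicardial markers, 18.97 to 20.4 CPM in FlncgKO and 26.3 to 33.4 CPM in control for second heart field markers, and 78.0 to 122 CPM in FlncgKO and 62.4 to 79.1 CPM in control for neural crest markers. Of the second heart field markers, *Osr1* passed edgeR on the lower side (log2 fold change -1.48, adjusted p = 0.0423). *Isl1* (-0.69) was lower and passed DESeq2 only (adjusted p = 0.0171). *Fgf10* lay lower without passing either test, *Fgf8* (0.11) overlapped and *Tbx1* was not tested. The neural crest sum was mostly *Ets1*, also an endothelial gene, at 70.3 to 114 CPM in FlncgKO and 55.2 to 71.0 CPM in control, while *Sox10* had 4, 3 and 3 counts in FlncgKO and 26, 18 and 5 counts in control and *Foxd3* had none. Of the neural tube and somite lists, *Neurog2*, *Olig2*, *Myf5* and *Myod1* had no count in any library, *Pax6* and *Meox1* had 9 to 25 and 13 to 23 counts, and *Tubb3* had 111, 60 and 127 counts in FlncgKO and 190, 234 and 157 counts in control. Y-linked genes summed to 80.7, 3.88 and 4.28 CPM in FlncgKO replicates 1, 2 and 3 and to 117 to 139.7 CPM in control, so the Y-linked level partly goes with the groups, and with it as a covariate none of the 16048 genes passed the edgeR test, while 901 higher and 385 lower ones had an unadjusted p under 0.05.

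None of the 10 genes passed the edgeR quasi-likelihood test at an adjusted p under 0.05, against 1.31% of all tested genes. At an unadjusted p under 0.05, *Tgfb1* and *Tgfb3* were on the higher and *Tgfb2* on the lower side, which is 3 of 10 beside 22.2% of all genes. The FlncgKO and control libraries did not overlap for 4 of the 10 genes, *Tgfb1* and *Tgfb3* higher and *Tgfb2* and *Bmp2* lower in FlncgKO, beside 29.7% of all genes (15.7% higher and 14.1% lower). DESeq2, the test the authors used, called *Tgfb1* higher and *Tgfb2* lower, 1 gene each way, where it called 8.49% of all genes, 6.22% higher and 2.27% lower. The median log2 fold change of the 10 genes was -0.02, FlncgKO minus control, beside 0.01 over all tested genes. The shares without overlap and past the unadjusted p were thus near those of all genes, and 3 of the 4 genes without overlap were TGF-beta ligand genes. In exact two-sided permutation tests over libraries the 4 genes without overlap reached p = 0.1, the smallest value that 3 against 3 allows.

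**Figure D1:**
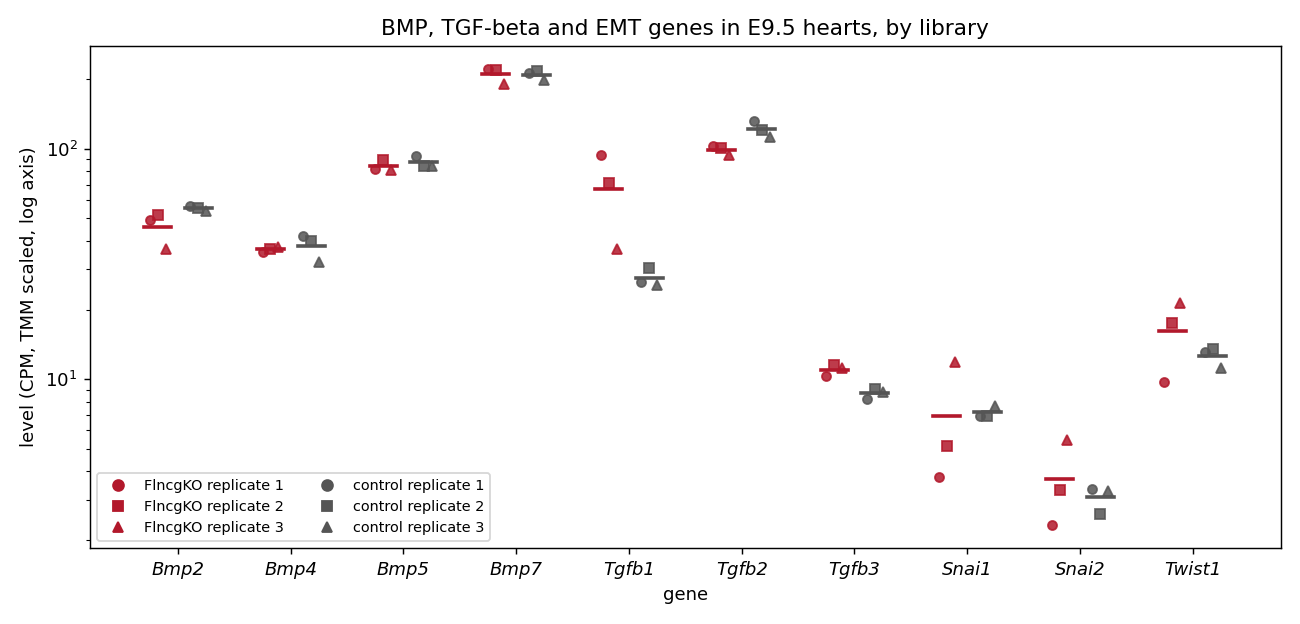
Level of each of the 10 genes, with 1 symbol per library and CPM on a logarithmic vertical axis; red symbols are FlncgKO, grey symbols are control, the symbol shape gives the replicate and the horizontal bar the group mean. *Tgfb1* and *Tgfb3* lie higher and *Bmp2* and *Tgfb2* lower in every FlncgKO library, while *Snai1*, *Snai2* and *Twist1* spread to both sides of the controls.

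Among the BMP ligand genes, *Bmp7* was the most abundant per transcript length and *Bmp4* and *Bmp2* the least, and none passed the test. *Bmp2* (chromosome 2, 133552159 to 133562885, GRCm38) encodes the atrioventricular canal signal that starts cushion formation in mouse. It had 48.9, 51.4 and 36.9 CPM in FlncgKO replicates 1, 2 and 3, against 56.7, 55.6 and 53.7 CPM in control replicates 1, 2 and 3. Every FlncgKO library lay below every control, with replicate 3 the lowest. The log2 fold change was -0.27 (standard error 0.12, edgeR adjusted p = 0.235), with a 95% interval of -0.55 to 0.0073.

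*Bmp4* (chromosome 14, 46383520 to 46390669) is expressed in outflow tract myocardium and needed for its septation. It had 35.6, 36.6 and 37.5 CPM in FlncgKO hearts, against 41.8, 39.9 and 32.2 CPM in control hearts. The FlncgKO values lay inside the control range. *Bmp5* (chromosome 9, 75775364 to 75900310), a ligand that overlaps with *Bmp7* in function in the mouse heart, had 82.0, 89.7 and 81.1 CPM in FlncgKO, against 92.9, 84.5 and 84.4 CPM in control, and the groups overlapped. *Bmp7* itself (chromosome 2, 172868012 to 172940321) had 222, 220.4 and 191 CPM in FlncgKO, against 213, 219 and 199 CPM in control, the smallest log2 fold change of the 10 genes. The 95% intervals of the log2 fold change were -0.28 to 0.18 for *Bmp4*, -0.21 to 0.11 for *Bmp5* and -0.16 to 0.18 for *Bmp7*, and changes within these bounds were not excluded. The edgeR adjusted p-values of the 3 genes were 0.796, 0.706 and 0.951.

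Within *Bmp4* the estimate for single transcripts differed more than the gene total. The transcript *Bmp4*-202, with 3 exons, was estimated at 168, 151 and 118 counts in FlncgKO replicates 1, 2 and 3, against 72.5, 0 and 0 counts in control. It made up 21.2%, 16.5% and 18.3% of the *Bmp4* TPM in FlncgKO, against 8.64%, 0% and 0% in control. *Bmp4*-201, with 4 exons, held most of the rest, and both transcripts encode a protein of 408 residues. Salmon divides reads shared by transcripts by estimate, so a listed 0 can be a division of shared reads, and no test was made.

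The TGF-beta ligand genes were the 3 with an unadjusted p under 0.05. *Tgfb1* (chromosome 7, 25687002 to 25705077) encodes the ligand found in endothelium and blood cells and stored in platelets. It had 94.0, 70.9 and 36.9 CPM in FlncgKO replicates 1, 2 and 3, against 26.5, 30.3 and 25.6 CPM in control replicates 1, 2 and 3. All FlncgKO libraries lay above all controls, but replicate 3 was closer to the controls than to replicate 1. The means were 67.2 ± 28.8 CPM in FlncgKO and 27.5 ± 2.46 CPM in control (SD, n = 3 each). The log2 fold change was 1.29 (standard error 0.36, a 2.45-fold difference, 95% interval 0.36 to 2.22), with an adjusted p of 0.133 from edgeR and 0.0172 from DESeq2. Without FlncgKO replicate 3 it was 1.59 with an edgeR adjusted p of 0.0016, and *Tgfb1* did not pass edgeR when any other library was left out (0.189 to 0.334). The DESeq2 call was lost without control replicate 1 (adjusted p = 0.157), control replicate 2 (0.1001), control replicate 3 (0.112) or FlncgKO replicate 2 (0.1701). That call held without FlncgKO replicate 1 (0.00959) or FlncgKO replicate 3 (7.65e-23). In bulk RNA, more cells of a type and more RNA per cell cannot be told apart.

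Platelet and megakaryocyte markers lay higher in the same libraries. The 8 markers (*Gp1bb*, *Gp5*, *Gp9*, *Itga2b*, *Pf4*, *Plek*, *Ppbp* and *Treml1*) summed to 639, 395 and 101 CPM in FlncgKO replicates 1, 2 and 3, against 22.2, 18.0 and 26.7 CPM in control. All 8 were higher in every FlncgKO library than in every control. None passed the edgeR test, while DESeq2 called all 8 higher (adjusted p 1.82e-13 to 0.000227). Macrophage and leukocyte markers, of which 4 of 7 were tested, summed to 18.3, 13.1 and 29.0 CPM in FlncgKO and 5.53, 4.49 and 13.3 CPM in control, with an overlap between the groups. Of these, the leukocyte integrin *Itgb2* passed edgeR at 8.67, 5.87 and 3.60 CPM in FlncgKO and 1.19, 0.965 and 1.64 CPM in control (log2 fold change 2.25, adjusted p = 0.0411), and *Fcer1g* did not overlap between the groups either. The other tested markers, *Cd68* (log2 fold change -0.07) and *Csf1r* (1.23), overlapped. *Csf1r* was highest in FlncgKO replicate 3, as was *Ptprc*, not tested, with 8, 8 and 67 counts in FlncgKO and 7, 2 and 19 counts in control. The 8 endothelial and endocardial markers, whose sums overlapped, went both ways. *Emcn* rose by 1.24 on the log2 scale (edgeR adjusted p = 0.0353). *Cdh5* (0.31) and *Pecam1* (0.50) lay higher and *Npr3* (-0.58) and *Tek* (-0.40) lower in every FlncgKO library. *Cdh5*, *Pecam1*, *Npr3* and *Tek* did not pass edgeR but passed DESeq2 (adjusted p = 0.0264, 0.00444, 0.00078 and 0.0122), and the other 3 overlapped. The part of these lists in the *Tgfb1* difference was not tested.

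**Figure D2:**
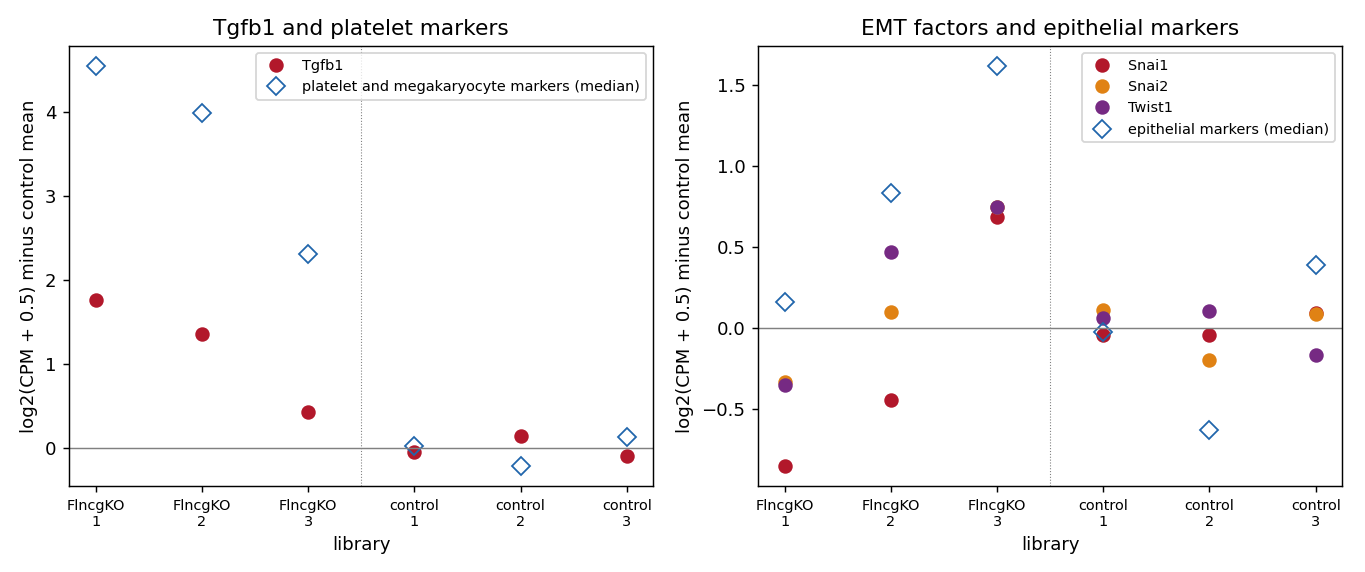
Difference of each library from the control mean on the log2(CPM + 0.5) scale, for *Tgfb1* beside the median of the 8 platelet and megakaryocyte markers (left) and for *Snai1*, *Snai2* and *Twist1* beside the median of the epithelial markers (right); each symbol is 1 library. The platelet median stands at 4.55, 3.99 and 2.31 in FlncgKO replicates 1, 2 and 3, and *Tgfb1* takes the same order among them.

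*Tgfb2* (chromosome 1, 186622792 to 186705989) encodes the TGF-beta ligand of the cushion-forming myocardium, whose loss in mouse disturbs cushion remodelling. It had 103, 101 and 93.9 CPM in FlncgKO replicates 1, 2 and 3, against 132, 121 and 113 CPM in control replicates 1, 2 and 3. Every FlncgKO library lay below every control. The means were 99.3 ± 4.83 CPM in FlncgKO and 122 ± 9.74 CPM in control (SD, n = 3 each), a log2 fold change of -0.30 (standard error 0.073, 95% interval -0.47 to -0.13). The adjusted p was 0.0829 from edgeR, 0.00871 from DESeq2 and 0.0335 from edgeR with no filter on low counts, so the call turned on the tool and the filter. The DESeq2 call was lost without control replicate 1 (adjusted p = 0.107) or control replicate 2 (0.0738), with log2 fold changes of -0.24 and -0.31, and edgeR gave 0.0795 to 0.278 when 1 library was left out.

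*Tgfb3* (chromosome 12, 86056745 to 86079041), known in mouse chiefly for palate fusion and expressed in cushion mesenchyme, was the least abundant of the 7 ligand genes per transcript length. It had 10.3, 11.5 and 11.2 CPM in FlncgKO hearts, against 8.19, 9.07 and 8.84 CPM in control hearts. The groups did not overlap, and each was tight. The log2 fold change was 0.34 (standard error 0.10, 95% interval 0.10 to 0.58), with an adjusted p of 0.115 from edgeR and 0.227 from DESeq2.

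As levels per transcript length (TPM), *Tgfb1* took a larger part of the TGF-beta ligand RNA in every FlncgKO library than in any control. *Tgfb1* made up 63.1%, 58.6% and 41.7% of the summed ligand TPM in FlncgKO replicates 1, 2 and 3, against 30.0%, 33.7% and 32.2% in control. *Tgfb2* made up 33.0%, 36.5% and 51.1% in FlncgKO, against 65.3%, 61.0% and 62.1% in control. *Tgfb2* was thus the leading TGF-beta ligand RNA in all 3 controls and in FlncgKO replicate 3, and *Tgfb1* in FlncgKO replicates 1 and 2. The sums were 119, 108 and 68.2 TPM in FlncgKO, against 79.4, 75.3 and 68.8 TPM in control, so the total in FlncgKO replicate 3 was no higher than in the controls. The same transcript led *Tgfb1* in both groups, *Tgfb1*-201 with 87.7% to 95.4% of its TPM in FlncgKO and 84.3% to 95.3% in control.

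**Figure D3:**
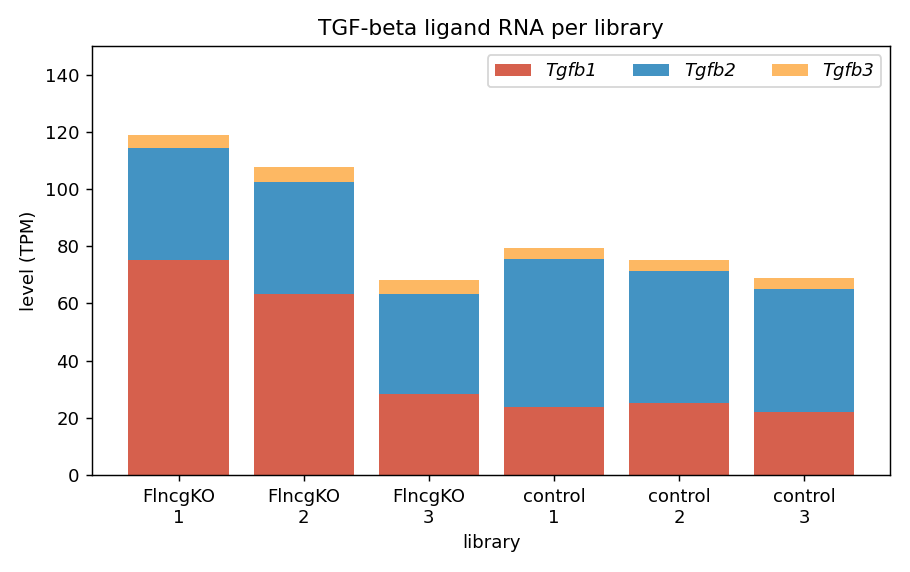
Summed TPM of the 3 TGF-beta ligand genes in each library, stacked by gene. The *Tgfb1* part is largest in FlncgKO replicates 1 and 2, and the *Tgfb2* part is largest in the other 4 libraries.

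The promoters of *Tgfb1* and *Tgfb2* are shown because the FlncgKO libraries lay above all controls for *Tgfb1* and below all controls for *Tgfb2*. These 2 members of one family were called by DESeq2 and not by the main edgeR test. Both sequences are from RefSeq (GRCm38.p6) and run from 250 bases before to 50 bases after the annotated start, 5′ to 3′ on the strand of the gene, chr7:25686752-25687051 (plus strand) for *Tgfb1* and chr1:186705940-186706239 (minus strand) for *Tgfb2*. Capitals mark matches, on either strand, to the searched motifs: the AP-1 site TGANTCA, the cAMP response element TGACGTCA, the Snail E-box CAGGTG, the Smad box CAGAC, the GC box GGGCGG, the GATA site AGATAA and the TATA box TATAAA.
Tgfb1: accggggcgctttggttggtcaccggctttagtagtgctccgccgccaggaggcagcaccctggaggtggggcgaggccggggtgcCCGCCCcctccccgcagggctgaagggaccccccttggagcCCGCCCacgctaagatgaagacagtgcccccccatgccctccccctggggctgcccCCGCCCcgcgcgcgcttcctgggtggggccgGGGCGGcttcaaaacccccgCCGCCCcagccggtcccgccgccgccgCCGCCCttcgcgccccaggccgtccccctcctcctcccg
Tgfb2: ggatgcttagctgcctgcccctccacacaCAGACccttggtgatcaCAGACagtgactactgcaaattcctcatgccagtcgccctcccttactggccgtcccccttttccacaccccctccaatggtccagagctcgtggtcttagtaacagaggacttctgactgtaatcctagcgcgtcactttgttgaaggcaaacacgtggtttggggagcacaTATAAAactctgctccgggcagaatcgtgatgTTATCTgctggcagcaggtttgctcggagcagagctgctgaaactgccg
The *Tgfb1* promoter is 77.0% G and C and holds 6 GC boxes and no other motif of the set. The *Tgfb2* promoter is 54.3% G and C and holds 2 Smad boxes, 1 TATA box and 1 GATA match and no GC box. Over 32851 promoters of this length, 35.7% hold a GC box, 49.6% a Smad box, 13.6% a TATA box and 11.2% a GATA match, and the median G and C content is 52.7%. These are matches of letters only, not binding sites. Of the 10 genes, 6 had a promoter in the table used (*Bmp4*, *Bmp5*, *Tgfb1*, *Tgfb2*, *Snai1* and *Twist1*); *Bmp4* and *Snai1* each held 1 Snail E-box, which 20.2% of all promoters hold.

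The EMT factors *Snai1*, *Snai2* and *Twist1* varied more between FlncgKO libraries than between the groups. *Snai1* (chromosome 2, 167538195 to 167542814), a zinc-finger repressor of cadherin genes that starts the transition in endocardium, had 3.76, 5.16 and 11.8 CPM in FlncgKO replicates 1, 2 and 3, against 6.95, 6.95 and 7.68 CPM in control. *Snai2* (chromosome 16, 14705852 to 14709385), its close relative and a Notch target in the cushions, had 2.325, 3.31 and 5.48 CPM in FlncgKO, against 3.34, 2.61 and 3.29 CPM in control. *Twist1* (chromosome 12, 33957671 to 33959829), a basic helix-loop-helix factor of cushion mesenchyme, had 9.75, 17.6 and 21.4 CPM in FlncgKO, against 13.1, 13.6 and 11.2 CPM in control. For each of the 3 genes FlncgKO replicate 1 lay below all controls and FlncgKO replicate 3 above all controls. The FlncgKO and control SDs were 4.32 and 0.422 CPM for *Snai1*, 1.61 and 0.409 CPM for *Snai2*, and 5.93 and 1.28 CPM for *Twist1*.

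The log2 fold changes of the EMT factors were -0.06 for *Snai1* (95% interval -1.09 to 0.97), 0.26 for *Snai2* (-0.47 to 0.99) and 0.36 for *Twist1* (-0.33 to 1.05), with edgeR adjusted p-values of 0.951, 0.669 and 0.506. Changes within these intervals were not excluded. *Snai1* was positive without FlncgKO replicate 1 or 2 (0.23 and 0.11), *Snai2* negative without FlncgKO replicate 3 (-0.13), and *Twist1* passed DESeq2 without FlncgKO replicate 1 (0.61, adjusted p = 0.0159). With the Y-linked covariate *Snai2* and *Twist1* turned to -0.55 and -0.52. Markers of surface ectoderm and pharyngeal epithelium, of which 5 of 6 were tested, summed to 244, 317 and 504 CPM in FlncgKO replicates 1, 2 and 3, against 184, 129 and 279 CPM in control. They overlapped between the groups, none was called, and their part in the spread of the EMT factors was not tested. The mesenchymal homeobox gene *Prrx1* also had FlncgKO replicate 1 below and replicate 3 above all controls, at 8.003, 16.7 and 18.7 CPM in FlncgKO and 11.5, 11.5 and 12.3 CPM in control. *Twist2* had 1.34, 3.26 and 5.42 CPM in FlncgKO and 2.01, 0.627 and 1.16 CPM in control, and both were picked after their values were seen.

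**Figure D4:**
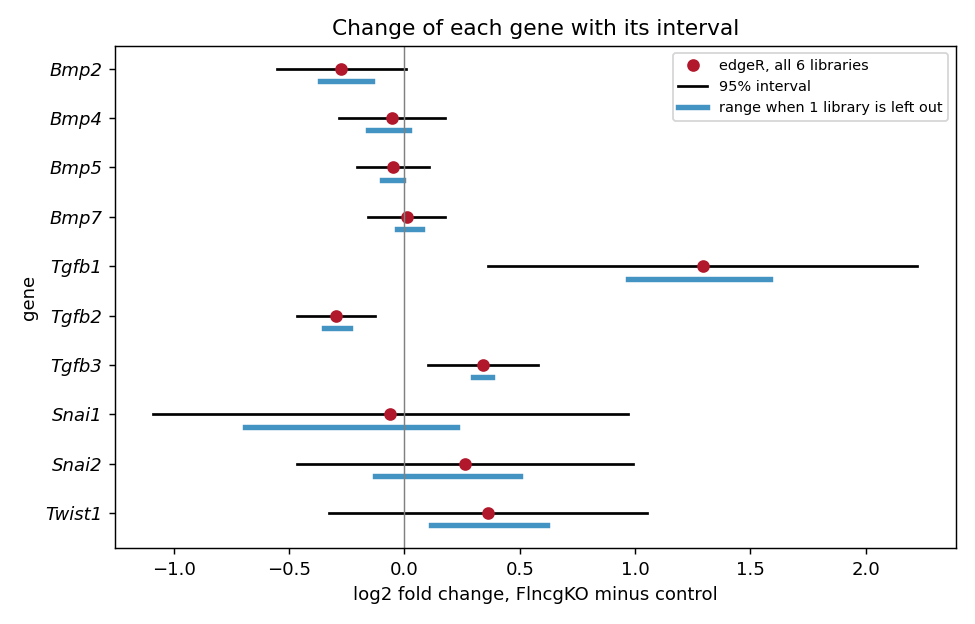
Log2 fold change of each gene, FlncgKO minus control, from edgeR (red point) with its 95% interval (black line) and the range when 1 library is left out (blue line). The intervals of *Tgfb1*, *Tgfb2* and *Tgfb3* do not reach 0, those of the other 7 genes do, and the lines of *Snai1*, *Snai2* and *Twist1* are among the widest.

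Per transcript length, the order of the 10 genes in control hearts was *Bmp7* (88.5 ± 4.70 TPM), *Tgfb2* (46.9), *Bmp5* (43.6), *Bmp4* (34.4), *Bmp2* (31.6), *Tgfb1* (23.8 ± 1.60), *Twist1* (23.2), *Snai1* (9.44), *Tgfb3* (3.85) and *Snai2* (3.23 TPM). Neighbours whose libraries overlapped were *Tgfb2* and *Bmp5*, *Bmp4* and *Bmp2*, and *Tgfb1* and *Twist1*. In FlncgKO hearts *Tgfb1*, at 55.6 ± 24.2 TPM, stood second behind *Bmp7* at 89.9 TPM, but its libraries overlapped those of *Bmp5* at 42.7 TPM, the next gene in the order. *Tgfb2* stood at 37.8 TPM, below *Bmp5* in every FlncgKO library.

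The genes whose profile over the 6 libraries was most like that of *Tgfb2* were *Atat1*, *Runx1t1* and *Fign*, with root mean square differences of 0.021, 0.027 and 0.032 between centred log2 CPM values. Those most like *Tgfb3* were *Myo6*, *Rhoc* and *Fblim1*, at 0.033, 0.036 and 0.037. These are nearest neighbours among 16048 genes over 6 libraries, and they share the libraries and the group difference.

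The rest of the pathway was described through 8 lists with 107 tested genes, of which 4 passed the test higher and 2 lower, beside 1.06% and 0.249% of all genes. DESeq2 called 16 of them higher and 9 lower, beside its 6.22% and 2.27% of all genes. Among the other ligands, *Bmp6*, a BMP ligand of endocardium and cushions, rose. It had 17.6, 18.0 and 15.2 CPM in FlncgKO hearts, against 9.10, 8.16 and 7.83 CPM in control hearts, which is 1.02 on the log2 scale (standard error 0.11), with an edgeR adjusted p of 0.0310. *Gdf2*, which encodes the circulating endothelial ligand BMP9 made in liver, fell by 2.11 on the log2 scale (standard error 0.34, adjusted p = 0.0411), on only 7, 4 and 4 counts in FlncgKO against 26, 19 and 20 counts in control. Foregut and liver bud markers summed to 5.72, 4.15 and 22.7 CPM in FlncgKO and 81.3, 4.73 and 12.8 CPM in control, and their part in it was not tested. *Bmp10*, the ligand of trabecular myocardium, had 129, 160.2 and 113 CPM in FlncgKO and 88.5, 123.4 and 98.3 CPM in control (adjusted p = 0.266), and was picked after its values were seen.

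None of the 13 receptor genes passed edgeR. The 2 with the smallest p were *Acvrl1*, the endothelial type I receptor ALK1, at a log2 fold change of 0.49 (edgeR adjusted p = 0.0934), and *Acvr1c*, a type I receptor for Nodal and activins, at -1.68 (0.101) from under 2 CPM. *Tgfbr1*, the main type I receptor for TGF-beta, had 114, 119 and 119 CPM in FlncgKO and 139, 136 and 128 CPM in control; it was picked after its values were seen and passed DESeq2 only (adjusted p = 0.0323, edgeR 0.102). Among 12 tested extracellular inhibitors, *Sost* alone passed edgeR, on the higher side. *Sost*, known chiefly as a WNT inhibitor, had 21.5, 27.8 and 23.3 CPM in FlncgKO, against 9.61, 9.12 and 10.05 CPM in control, which is 1.34 on the log2 scale (standard error 0.11, adjusted p = 0.0155).

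Genes that keep TGF-beta latent or activate it had a median log2 fold change of 0.39 over 12 tested, beside 0.01 for all genes. None was called by edgeR, while DESeq2 called 6 higher and 1 lower, beside 6.22% and 2.27% of all genes. The 2 with the smallest p were *Itgav*, the alpha V integrin that releases active TGF-beta, at 120.2, 133 and 112 CPM in FlncgKO and 93.0, 94.5 and 94.5 CPM in control (log2 fold change 0.37, edgeR adjusted p = 0.0501), and its partner *Itgb8*, at 8.99, 7.24 and 9.70 CPM in FlncgKO and 13.8, 16.0 and 12.3 CPM in control (-0.70, adjusted p = 0.0654). Neither pair of groups overlapped. *Thbs1* and *Lrrc32*, picked after their values were seen, encode a platelet and matrix activator of latent TGF-beta and a cell-surface docking protein for it. *Thbs1* had 894, 607 and 206 CPM in FlncgKO replicates 1, 2 and 3, against 49.99, 66.8 and 49.95 CPM in control, with an adjusted p of 0.0850 from edgeR and 1.67e-06 from DESeq2. *Lrrc32* had 18.8, 15.8 and 10.95 CPM in FlncgKO, against 4.94, 4.54 and 7.83 CPM in control (adjusted p 0.0659 from edgeR and 4.08e-05 from DESeq2). Both take the order of *Tgfb1* and of the platelet markers among the FlncgKO libraries, replicate 1 highest and replicate 3 lowest.

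The Smad genes and their regulators stayed within -0.36 to 0.37 on the log2 scale, and none of 12 passed edgeR or DESeq2. On the higher side 2 and on the lower side 1 had an unadjusted edgeR p under 0.05, near the share of 22.2% of all genes. The 2 with the smallest p were *Smad9*, a BMP-activated Smad, at 16.1, 18.2 and 16.8 CPM in FlncgKO and 21.3, 20.2 and 24.2 CPM in control (-0.36, edgeR adjusted p = 0.0954), and the inhibitory *Smad7*, at 48.4, 57.2 and 49.2 CPM in FlncgKO and 44.5, 38.9 and 43.5 CPM in control (0.29, adjusted p = 0.112).

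Of 9 BMP target genes 8 had a negative log2 fold change, as had 48.4% of all tested genes, with a median of -0.34 beside 0.01 for all genes. In every FlncgKO library 4 of them, *Id2*, *Id3*, *Id4* and *Tbx3*, lay below every control, beside 14.1% of all genes. *Id2* alone passed edgeR or DESeq2. *Id2*, an inhibitor of basic helix-loop-helix factors, had 134, 129 and 130.3 CPM in FlncgKO, against 196, 186 and 176 CPM in control, which is -0.51 on the log2 scale (standard error 0.056, edgeR adjusted p = 0.0310). Of 10 TGF-beta target genes 9 had a positive log2 fold change, as had 51.6% of all tested genes, with a median of 0.69, and *Ccn1* alone rose by edgeR, while DESeq2 called 6 higher, beside 6.22% of all genes. *Ccn1*, a secreted matrix protein, had 114, 106 and 104 CPM in FlncgKO, against 76.2, 86.6 and 75.0 CPM in control (log2 fold change 0.45, standard error 0.073, adjusted p = 0.0408). *Col1a1*, the collagen I alpha 1 chain, had 98.9, 144 and 215 CPM in FlncgKO and 32.7, 22.3 and 35.3 CPM in control. *Ccn2*, a secreted matrix protein related to *Ccn1*, had 133, 163 and 78.4 CPM in FlncgKO and 38.2, 49.5 and 46.7 CPM in control. Neither gene passed edgeR (adjusted p = 0.0605 for *Col1a1* and 0.0806 for *Ccn2*), while both passed DESeq2 (5.13e-08 and 0.000288). Both were picked after their values were seen. Target genes answer to other signals too, so these lists describe the genes named and no activity of the ligands.

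Of the 30 other genes of cushion EMT, *Snai3* alone passed edgeR, beside 1.31% of all genes. DESeq2 called 2 higher and 4 lower, beside 6.22% and 2.27% of all genes, and the median log2 fold change was 0.09. *Snai3*, a zinc-finger gene of the Snail family, had 10.7, 12.3 and 8.92 CPM in FlncgKO, against 2.84, 2.70 and 2.85 CPM in control, which is 1.93 on the log2 scale (standard error 0.16, edgeR adjusted p = 0.0142). It lay above the controls in all 3 FlncgKO libraries, where its relatives *Snai1* and *Snai2* spread to both sides. *Has2*, the hyaluronan synthase of the cardiac jelly, had 109, 116 and 89.0 CPM in FlncgKO and 94.9, 87.1 and 80.9 CPM in control (adjusted p = 0.217). The Notch ligand *Jag1* had 90.7, 85.9 and 77.9 CPM in FlncgKO and 100.4, 101 and 99.0 CPM in control, lower in every FlncgKO library, and passed DESeq2 (adjusted p = 0.0344) but not edgeR (0.0994). *Has2* and *Jag1* were picked after their values were seen.

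**Figure D5:**
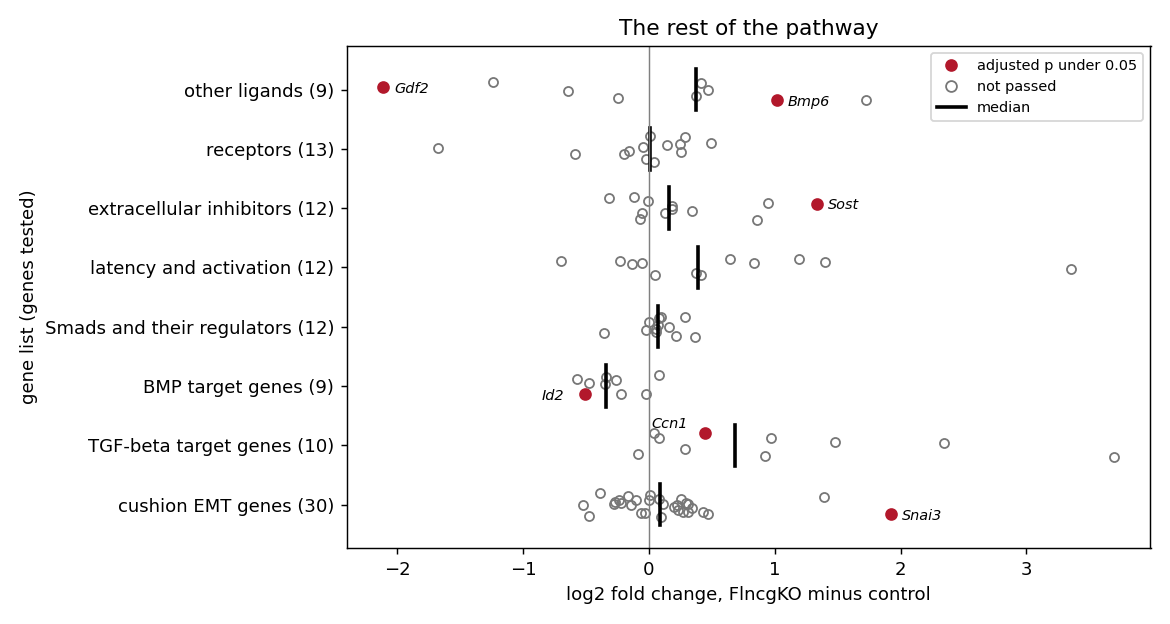
Log2 fold change, FlncgKO minus control, of every tested gene of the 8 pathway lists; filled red points passed edgeR at an adjusted p under 0.05 and are named, open points did not, and the black bar is the median of the list. The medians run between -0.34 for BMP target genes and 0.69 for TGF-beta target genes.

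The sizes of the 6 called changes moved little when 1 library was left out, and their edgeR calls did not all hold. None of *Bmp6*, *Gdf2*, *Sost*, *Id2*, *Ccn1* and *Snai3* passed edgeR without control replicate 1 (adjusted p 0.142 to 0.216) or without control replicate 2 (0.163 to 0.198), and 2 of the 6, *Sost* and *Snai3*, passed without FlncgKO replicate 1 or 2. Without control replicate 1 or 2 the log2 fold changes were 1.08 and 1.00 for *Bmp6*, 1.33 and 1.30 for *Sost*, 1.94 and 1.90 for *Snai3* and -0.47 and -0.51 for *Id2*, and edgeR called 1 higher and 0 lower of all genes in each of these settings. DESeq2 called 5 or 6 of the 6 whichever library was left out, with *Gdf2* the one not called. Exons of *Bmp4*, *Bmp5*, *Bmp6*, *Tgfb2*, *Tgfb3*, *Itgav*, *Thbs1*, *Acvrl1*, *Acvr1c*, *Ccn2*, *Has2* and *Twist2* overlap a gene on the opposite strand, by 80 bases for *Tgfb2* and 1878 bases for *Bmp5*; the kit keeps strand, but the strand setting of the counting is not given in the sources used here, so part of these counts is uncertain.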

How the data were processed

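RNA-seq of 3 FlncgKO and 3 control libraries was used, grouped by the labels. The authors quantified transcripts of GENCODE M22 (GRCm38.p6) with salmon and deposited estimated counts, TPM and effective lengths for each transcript; the salmon version is not given in the sources used here, and the authors tested with DESeq2 1.22.2. Transcripts were joined to genes through GENCODE M21, which left out 521 of 140658 transcripts with 0.108% to 0.131% of the counts. The deposited estimated counts were added up over each gene's transcripts and rounded, the deposited TPM likewise added up for levels between genes, and the deposited effective lengths, in bases, used for 1 alternative. Libraries held 19208859 to 23123255 counts, and no pair of replicates was a repeat of 1 library. The main test was edgeR 4.0.16 (quasi-likelihood with robust dispersion, TMM, low counts removed by filterByExpr at 10 counts) under R 4.3.3, tested on simulated data, with Benjamini-Hochberg adjustment over 16048 genes and a threshold of 0.05. Intervals are 95%. No set test was made.

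The members and lists were chosen with earlier results of these data known. Named are all members, *Flnc*, the passing genes of each list where 5 or fewer pass, the 2 with the smallest p where none passes, the 3 nearest profiles for each of the 2 members with the smallest p, and 10 genes and the single markers of other cell types picked after their values were seen. Some genes are not reported here. Alternatives were RLE scaling, total counts, no filter, 10 counts in every library, length offsets, a replicate block, a Y-linked covariate, leaving out each library, DESeq2 1.42.0 and, added after seeing the data, DESeq2 without each library.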

Additional observations from a re-analysis of the deposited data

How the results depend on the processing

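Of the 10 member genes edgeR called 0 higher and 0 lower, with 2 and 1 at an unadjusted p under 0.05. It called 1 lower with no filter on low counts, and DESeq2 called 1 higher and 1 lower. When 1 library was left out edgeR called 0 to 1 higher and 0 lower, and DESeq2 0 to 2 higher and 0 to 1 lower. Over all genes edgeR called 170 higher and 40 lower. The counts were 392 and 162 with no filter, 215 and 62 with 10 counts in every library, 63 and 13 with length offsets, 0 and 0 with the Y-linked covariate and 988 and 361 by DESeq2. They ran from 1 to 989 higher and from 0 to 283 lower when 1 library was left out of edgeR, and the highest counts were without FlncgKO replicate 3. Of the 6 called pathway genes, 5 passed with 10 counts in every library, 4 with length offsets and 0 with the Y-linked covariate. In the 8 pathway lists edgeR called 4 genes higher and 2 lower, against 8 and 5 with no filter, 12 and 4 with the replicate block, 3 and 1 with length offsets, 0 and 0 with the Y-linked covariate, 16 and 9 by DESeq2, and 0 to 20 and 0 to 7 when 1 library was left out of edgeR.

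Equal replicate numbers were not taken as pairs, since the labels do not say that they mark a litter. The deviations of same-numbered libraries correlated at 0.094, 0.574 and 0.620. Those of FlncgKO replicate 2 with control replicate 3 and of FlncgKO replicate 3 with control replicate 2 correlated at -0.628 and -0.550. FlncgKO replicate 1 correlated about equally with control replicates 1 and 2 (0.094 and 0.097). These values do not settle whether the numbers mark pairs. With a replicate block edgeR called 512 genes higher and 120 lower, and 0 members higher and 1 lower, *Tgfb2* (adjusted p = 0.0369). Of the other genes named, *Itgav* (0.0315) and *Bmp10* (log2 fold change 0.38, 0.0415) passed with the block beside the 6 called without it.

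Among the genes named, these changed direction. *Bmp7* was -0.019 with total counts only and -0.0019 with no filter. When 1 library was left out, the ranges in edgeR were -0.034 to 0.076 for *Bmp7*, -0.16 to 0.021 for *Bmp4*, -0.69 to 0.23 for *Snai1* and -0.13 to 0.50 for *Snai2*. In DESeq2 *Bmp7* was -0.036, -0.039 and -0.027 without control replicate 3, FlncgKO replicate 1 and FlncgKO replicate 2, *Bmp4* 0.014 without control replicate 1, *Snai1* 0.22 and 0.10 without FlncgKO replicates 1 and 2, and *Snai2* -0.13 without FlncgKO replicate 3. With the Y-linked covariate *Snai2*, *Twist1*, *Prrx1* and *Twist2* were -0.55, -0.52, -0.73 and -0.21. The cause of these changes was not tested. Depth limits the low genes most: *Gdf2* rested on 4 to 26 counts.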
